A study of Mus musculus with 4 samples.

Results

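The nuclei described here were Foxp2 lateral septum (LS) neurons, GABAergic neurons of the LS that carried RNA of Foxp2, a forkhead transcription factor, together with RNA of the LS channel gene Trpc4. The members were selected on measured values, namely unique molecular identifiers (UMIs), each of which marks 1 captured RNA molecule. A nucleus was a member when it had 200 to 6000 genes, less than 2% mitochondrial UMIs and at least 2000 UMIs, at least 3 UMIs of Foxp2, at least 2 of Trpc4 and at least 1 of Gad1 and Gad2 together, which encode the enzymes that make GABA. Members had fewer than 2 UMIs of Rarb and of Slc17a6, genes of striatal and of glutamatergic neurons, and fewer than 3 of St18. They had 0 UMIs of Crhr2, Pth2r, Calcr, Esr1 and Col15a1, genes of other septal subtypes. By this rule, 1936 nuclei were members, out of 58372 barcodes, 48940 nuclei within the same limits on genes and UMIs, and 21067 LS GABAergic neurons chosen by the same limits without those on Foxp2 and the subtype genes.

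The LS is a forebrain nucleus built mostly of GABAergic projection neurons that receive hippocampal input and project to the hypothalamus, and it is known for its part in anxiety, social behavior and motivation. Foxp2 represses and activates genes of neurite growth and synapse formation and is best known for vocal learning and for striatal projection neurons, which also express it strongly. In the LS it marks a subset of neurons, so that Foxp2 alone does not separate LS from neighboring striatum.

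The study asked how LS cells differ between mice with different immune and genetic backgrounds. Single-nucleus RNA sequencing was performed on LS tissue of male mice aged 6 to 8 weeks, with the tissue of 3 mice pooled in each of 4 libraries. Of these, 2 libraries came from C57BL/6JNifdc mice (C57J 1 and C57J 2), 1 from BALB/c nude mice (nude) and 1 from BALB/c mice (BALB/c). The nude mice lacked Foxn1, a gene needed for the thymus, and hence T cells, on a BALB/c background, and no other allele or agent was named for any group. C57J 1 was of sequencing batch 1, and C57J 2, nude and BALB/c were of batch 2. The comparison of C57J 1 and C57J 2 with nude and BALB/c is one of strain background. With 1 library each, T-cell deficiency cannot be told apart from differences between pools, strain cannot be told apart from the batch for C57J 1, and p-values measure only the spread between these libraries. Between 29 and 63 cell barcodes were shared by any pair of libraries.

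The C57J 1 library contributed 645 members, C57J 2 contributed 459, nude 434 and BALB/c 398. Their summed depth was 5913751, 3564027, 3533205 and 5704539 UMIs in the same order. The median member had 8565, 7044, 7492 and 13684 UMIs, so that members of the BALB/c library were the deepest. The median mitochondrial share was 0.342%, 0.136%, 0.158% and 0.189%, the highest value being that of the library of batch 1. Doublets were predicted but not removed from the members, and 14.4%, 13.3%, 16.8% and 11.6% of the members were predicted doublets in the 4 libraries.

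The genes of the rule are given first, as a description only. The number of Foxp2 UMIs per member ranged from 3 to 57 in C57J 1 with a median of 12, from 3 to 44 in C57J 2 with a median of 10, from 3 to 58 in nude with a median of 9, and from 3 to 72 in BALB/c with a median of 15. The summed level of Foxp2 was 1410, 1500, 1310 and 1170 CPM (the UMIs of a gene in every 1000000 UMIs of the set) in C57J 1, C57J 2, nude and BALB/c. At the edge of the rule, 44, 30, 45 and 12 members carried exactly 3 Foxp2 UMIs, with 392, 505, 383 and 237 CPM of Foxp2. Just outside it, 149, 75, 113 and 35 nuclei met every other limit with 2 Foxp2 UMIs, with 222, 257, 279 and 162 CPM.

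The label was then checked against genes that the rule did not use. The 6 LS neuron markers other than Trpc4 (Dgkg, Homer2, Ptpn3, Trhde, Cpne7 and Nrip3) summed to 1440, 1510, 1500 and 1410 CPM in the 4 libraries, against 415, 502, 487 and 293 CPM in 1373 striatal neurons chosen as GABAergic nuclei with Foxp2 and Rarb and fewer than 2 UMIs of Trpc4. Dgkg, a diacylglycerol kinase, was the most abundant of them, at 688, 753, 763 and 657 CPM in members. Over all nuclei with at least 2000 UMIs the 6 markers summed to 1410, 1470, 1570 and 1290 CPM. In LS neurons that met every other limit with 0 Foxp2 UMIs they summed to 1800, 1850, 1870 and 1780 CPM. The sum thus set members apart from the striatal neurons, but not from all nuclei. The 10 striatal projection neuron markers summed to 617, 563, 636 and 758 CPM in members and to 2260, 2100, 1720 and 2360 CPM in the striatal neurons, Pde10a being the most abundant in both. On both lists every library of members lay apart from every library of striatal neurons. The 5 glutamatergic markers summed to 6.59, 5.33, 3.68 and 7.71 CPM, led by Slc17a8, with Neurod6 at 0 in every library. The 7 astrocyte markers summed to 651, 456, 464 and 386 CPM, led by Slc1a2, and the 6 microglia markers to 62.1, 61.4, 53.2 and 45.1 CPM. No marker of these 2 glial lists was at 0 in all members.

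Members formed 11.8% (95% exact Clopper-Pearson interval 10.9 to 12.6) of the LS GABAergic neurons of C57J 1 and 9.42% (8.61 to 10.3) of those of C57J 2. In nude they formed 7.06% (6.43 to 7.73) and in BALB/c 8.72% (7.92 to 9.58). These intervals cover counting error only. Both C57J shares lay above that of nude and above that of BALB/c, although the intervals of C57J 2 and BALB/c overlapped. Relative to the mean C57J share, the log2 ratio was −0.59 for nude and −0.28 for BALB/c, where the SD of the 2 C57J libraries was 0.23 on the same scale. Within batch 2 alone, against C57J 2, the ratios were −0.42 and −0.11. Because a fixed limit of 3 UMIs is easier to pass in a deeper nucleus, the rule was also applied to counts thinned at random to 2000 UMIs per nucleus, which gave 6.59%, 7.24%, 4.81% and 6.96% of LS GABAergic neurons. At this common depth the BALB/c share lay between those of the C57J libraries, and the nude share remained the lowest. As a share of all nuclei with at least 2000 UMIs, members were 4.75%, 4.10%, 3.54% and 3.34%. No test was made, since the rule itself uses these counts and nude and BALB/c have 1 library each. A lower share of neurons that pass the rule cannot be told apart from less Foxp2 RNA per nucleus.

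**Figure D1:**
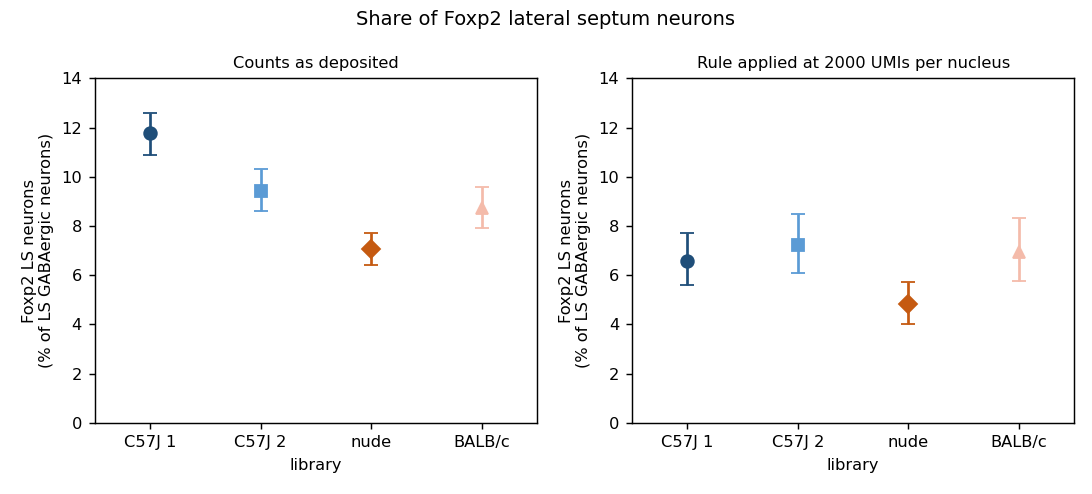
Share of Foxp2 LS neurons among LS GABAergic neurons (y axis, percent) in each library (x axis), with the counts as deposited (left) and with the rule applied to counts thinned to 2000 UMIs per nucleus (right). Points are single libraries and bars are exact 95% binomial intervals, which cover counting error only. The nude library is lowest in both panels, at 7.06% and 4.81%.

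Members were next set beside 10135 LS neurons that met every other limit but had 0 Foxp2 UMIs, referred to as Trpc4 neurons without Foxp2. Nuclei with 1 or 2 Foxp2 UMIs were in neither set. Since both sets were cut from the same libraries by measured counts, these levels are a description with no test. Of 11448 genes at 5 CPM or more in either set, 48 (0.419%) were over 1 log2 unit higher in members in all 4 libraries, and 87 (0.76%) were over 1 log2 unit lower.

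Ndst4, an enzyme that sulfates heparan sulfate chains of the extracellular matrix, had the highest median ratio of the genes named. Its level in members of C57J 1, C57J 2, nude and BALB/c was 468, 536, 539 and 492 CPM, and in Trpc4 neurons without Foxp2 it was 47.9, 48.3, 70.4 and 43.3 CPM. The median over libraries of the log2 ratio was 3.37, a 10.3-fold difference, and the ratios of single libraries ran from 2.93 to 3.49. With every nucleus thinned to 2000 UMIs, Ndst4 was found in 42.9%, 47.1%, 47.2% and 44.5% of members and in 7.02%, 6.92%, 10.9% and 6.23% of Trpc4 neurons without Foxp2. In the Foxp2 striatal neurons it was found in 1.74%, 1.69%, 9.79% and 2.43% of nuclei at the same depth. Ndst4 (chromosome 3, 125404076 to 125728899, plus strand, GRCm38) is a protein-coding gene with no annotated gene on top of it. Oligodendrocyte nuclei carried Ndst4 as well, in 6.22%, 6.75%, 29.0% and 49.8% of nuclei, and so were not used as its background.

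Signaling and adhesion genes followed. Gucy1a1, a subunit of the guanylate cyclase that responds to nitric oxide, was at 68.8, 79.7, 69.1 and 65.2 CPM in members and at 20.3, 21.0, 20.3 and 19.6 CPM in the other class, with a median log2 ratio of 1.74. Fgd5, an exchange factor for the GTPase Cdc42, was at 98.4, 110, 91.7 and 83.8 CPM against 28.3, 29.4, 27.2 and 25.4, a median log2 ratio of 1.76. Both genes kept nearly the same ratio in every library, the lowest and highest being 1.71 and 1.90 for Gucy1a1 and 1.70 and 1.88 for Fgd5. Cdh23, a cadherin known from the tip links of hair cells, was at 30.9, 20.5, 30.3 and 79.4 CPM against 4.91, 2.62, 6.43 and 6.51. Its level in BALB/c was the highest, and its log2 ratio varied from 2.15 to 3.51. Adgrv1, a very large adhesion receptor of the same sensory cells, was at 56.5, 83.6, 43.6 and 40.0 CPM against 11.5, 12.3, 12.7 and 8.50. Sgcd, which encodes delta-sarcoglycan of the dystrophin complex, was at 2510, 2580, 2350 and 2310 CPM against 902, 792, 806 and 778 CPM. Among transcription factors, Pbx3, a homeodomain protein, was at 673, 546, 584 and 707 CPM against 267, 216, 200 and 201. The zinc finger gene Zfp804b was at 1890, 1980, 1680 and 1920 CPM against 601, 630, 671 and 624. These genes were chosen by the lowest of their library ratios, so that members stood above the other class within every library by choice. Gdpd2, Svil, Lncenc1, Cntnap3, Ccbe1, Ptprk and Nell1 completed the 15 genes chosen for the highest ratios, with median log2 ratios from 1.38 to 2.02.

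A further group of genes was low in members. Cpa6, a secreted carboxypeptidase, was at 25.9, 27.8, 36.8 and 23.0 CPM in members and at 172, 224, 183 and 119 CPM in Trpc4 neurons without Foxp2, a median log2 ratio of −2.53. Adamtsl1, a matrix glycoprotein, was at 107, 96.0, 99.6 and 44.2 CPM against 513, 556, 521 and 370. Met, the receptor of hepatocyte growth factor and one of the genes described as Foxp2 targets, was at 7.44, 5.33, 8.77 and 3.68 CPM against 29.9, 38.7, 35.4 and 40.5. These genes were chosen by the highest of their 4 library ratios, so that members lay below the other class within every library by choice. Ndnf, Otx2os1, Ano2, Col23a1, Ror1 and Sox5 were also among the 10 lowest, with median log2 ratios between −2.33 and −1.95. Otx2os1 overlaps Otx2 on the opposite strand, and whether reads of this pair were separated by strand is not given in the sources used here.

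**Figure D2:**
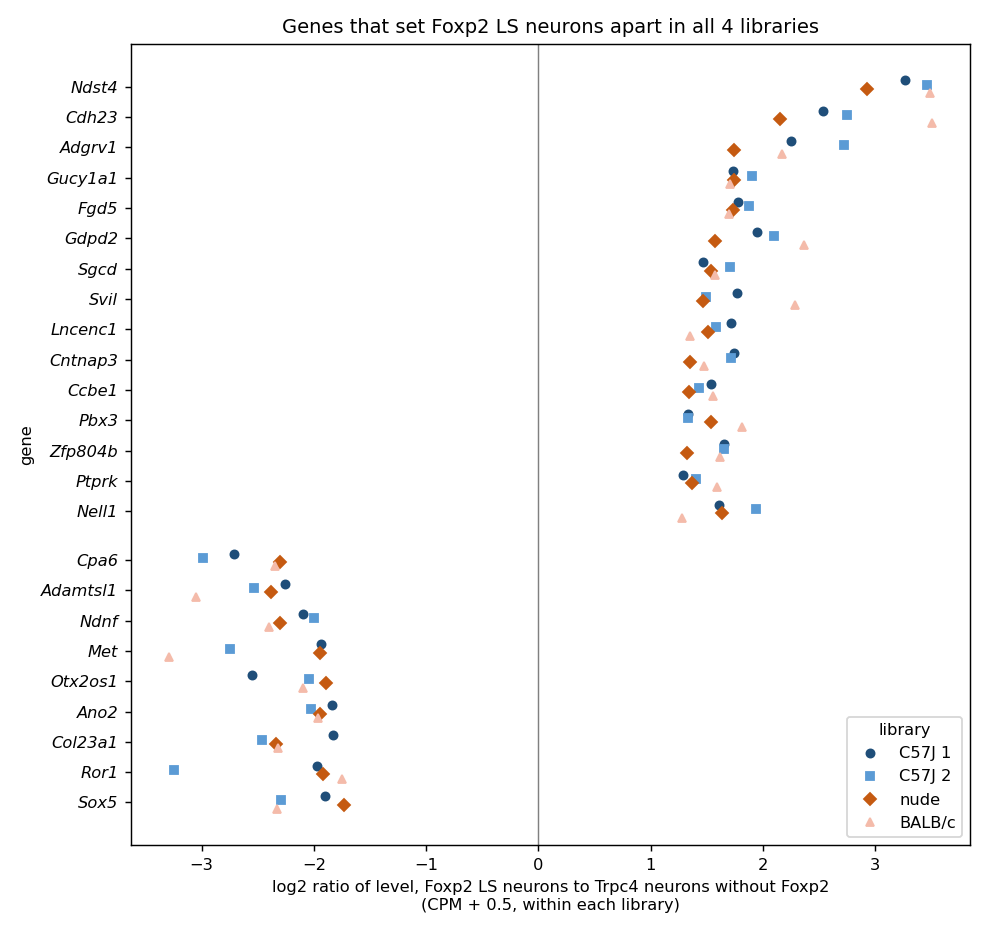
Log2 ratio of the level in Foxp2 LS neurons to that in Trpc4 neurons without Foxp2 (x axis, CPM plus a pseudocount of 0.5) for genes among the 15 highest and 10 lowest (y axis). Each symbol is 1 library. Ndst4 has the highest median, with ratios of 2.93 to 3.49. Every symbol of the lower genes lies left of 0, which follows from how they were chosen.

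Members also differed from the Foxp2 neurons of the striatum. The median log2 ratio to those neurons was 4.91 for Ndst4, 4.35 for Fgd5, 4.59 for the long noncoding RNA Lncenc1, 3.72 for Cdh23, 2.70 for Zfp804b and 2.28 for Ptprk, a receptor tyrosine phosphatase. In contrast, Gucy1a1 (−0.20), Svil (−0.07), Cntnap3 (0.13) and Pbx3 (−0.46) were at a like or lower level in members. Genes high in members thus included both some that the striatal Foxp2 neurons carried at a like level and some that they carried at a far lower one. Another 487 nuclei met the rule except that they carried a UMI of Crhr2, Pth2r, Calcr, Esr1 or Col15a1. Members exceeded these nuclei by 0.81 for Ndst4, 1.54 for Cdh23 and 0.43 for Fgd5 as median log2 ratios, and Adgrv1 (−0.09), Nell1 (0.01) and Zfp804b (−0.13) differed little between the 2 sets.

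Functional gene groups were described by the number of their members over 1 log2 unit from Trpc4 neurons without Foxp2 in all 4 libraries, beside shares of 0.419% higher and 0.76% lower over all 11448 genes. The median log2 ratio of all genes was −0.04. The genes named in this paragraph and the next were chosen after their values were seen. Among neuropeptide and hormone receptors, 2 of 20 genes at 5 CPM or more were higher, 2 were lower and the median ratio was −0.39. Esr2, the estrogen receptor beta, was at 8.79, 11.8, 8.49 and 12.1 CPM in members and at 2.15, 2.16, 2.46 and 2.19 CPM in the other class. Oprk1, the kappa opioid receptor, was at 15.9, 18.5, 12.5 and 15.6 CPM against 7.57, 7.11, 5.61 and 6.21. Galr1, a galanin receptor, and Trhr, the receptor of thyrotropin-releasing hormone, were the 2 lower genes, with median log2 ratios of −1.55 and −1.45. Among monoamine, acetylcholine and cannabinoid receptors, 2 of 19 genes were lower and 0 were higher. Cnr1, the cannabinoid receptor of nerve terminals, was at 25.0, 18.8, 24.6 and 11.9 CPM against 72.4, 71.4, 63.5 and 59.1, and Drd3, a dopamine receptor, was at 8.62, 4.77, 5.94 and 9.64 CPM against 24.0, 17.1, 21.3 and 31.9. The members of each library lay apart from the other class in these receptor genes, as the limit in all 4 libraries required.

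Of 32 forebrain transcription factors, 6 were lower in members and 0 were higher, and the median ratio was −0.66. Nfia and Nfib, paired nuclear factors, had median log2 ratios of −1.16 and −1.11, and Otx2, Sall3 and Dach2 had −1.21, −1.57 and −1.77. Meis2, the most abundant of the list, was at 1420, 1460, 1520 and 1550 CPM in members and at 776, 735, 756 and 770 CPM in the other class, short of the limit. Foxp1, which pairs with Foxp2, was at 233, 231, 272 and 246 CPM in members, below the 367, 359, 368 and 375 CPM of Trpc4 neurons without Foxp2 and the 1060, 967, 1090 and 1450 CPM of the striatal neurons. Of 17 neuron subtype genes named by the study, 2 were higher (Ndst4 and Fgd5) and 8 were lower (among them Cpa6, Met, Col6a3, Sall3, Dach2, Grid2ip and Otx2os1), a list that was chosen on these samples. Among glutamate receptors (22 genes), GABA receptors (13), transmitter handling (6), neuropeptides (7), immediate early genes (9) and genes of fear, learning and anxiety named by the study (6), 0 genes passed the limit in either direction. The axon guidance list held 2 lower genes of 36, Epha3 and Ntng1, and the Wnt list 1 lower of 18, Ror1.

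Members were not uniform, and clustering them without the rule genes gave 14 clusters, called by number, of 308, 229, 228, 191, 187, 162, 159, 156, 83, 60, 59, 51, 45 and 18 nuclei. Because the clusters were made from these genes, their leading genes and sizes are a description. Cluster 1 held 15.3%, 19.2%, 15% and 14.1% of the members of C57J 1, C57J 2, nude and BALB/c, and was led by Hmcn1, a matrix protein, at 49.6, 41.2, 36.9 and 39.0 CPM within it and 6.47, 15.1, 9.19 and 6.21 CPM outside. Cluster 3 was led by Slit2, an axon repellent, at 1170, 1070, 953 and 1040 CPM against 370, 350, 310 and 254. It also had the vesicular monoamine transporter gene Slc18a2 at 92.4, 104, 107 and 126 CPM against 39.0, 32.8, 29.1 and 33.0. Ndst4 was high in clusters 1, 3 and 4, between 732 and 1050 CPM in every library.

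Cluster 5 was the reverse in Ndst4, at 19.0, 38.1, 61.1 and 41.3 CPM, although its Foxp2 level was 2490, 2460, 2370 and 2710 CPM, above the 1320, 1400, 1220 and 1080 CPM of the remaining members. It was led by C1ql3, a secreted synapse organizer, at 38.0, 55.7, 30.5 and 76.7 CPM against 1.82, 4.65, 2.16 and 2.98, and by Igdcc3, Necab1 and Rspo3. A high Foxp2 level and a high Ndst4 level thus did not go together in cluster 5. Cluster 2 had the lowest Foxp2 level of the 4 largest clusters, at 869, 1020, 834 and 698 CPM, and was led by Met, Stac2 and Adamtsl1. Of these, Met and Adamtsl1 were among the genes low in the members as a whole. Met was at 35.7, 23.5, 37.5 and 30.4 CPM in cluster 2 and at 2.39, 3.14, 2.42 and 0.778 CPM outside it. Cluster 7 was led by Nr4a3 and Wfs1, the first an activity-regulated nuclear receptor, and carried Penk, the enkephalin precursor, at 55.6, 32.7, 36.2 and 32.7 CPM against 12.3, 12, 10.1 and 7.04. Nts, the neurotensin gene, was at 66.8, 62.1, 127 and 88.2 CPM in cluster 7 against 23.6, 23.3, 14.4 and 31.7. Cluster 8 was led by Cdh23, at 272, 286, 204 and 330 CPM against 14.5, 10.8, 17.6 and 34.7, and held 6.67%, 4.36%, 7.14% and 15.6% of the members, most in BALB/c.

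Several small clusters were led by their own genes, some of them from the lists of other cell types. Cluster 11, led by 6530403H02Rik, had the teashirt factor Tshz1 at 430, 466, 538 and 681 CPM against 18.6, 21.6, 11.5 and 15.1, and the mu opioid receptor gene Oprm1 at 264, 148, 378 and 267 CPM against 20.9, 15.6, 33.8 and 21.3. Cluster 12 was led by Lhx8, a LIM homeobox gene of the medial septal list, at 133, 120, 184 and 121 CPM against 3.11, 1.42, 5.54 and 1.61, and had little Meis2, at 62.8, 180, 87.1 and 15.2 CPM against 1450, 1480, 1560 and 1590. Cluster 13 had Six3, of the striatal list, at 145, 97.0, 87.3 and 161 CPM against 10.0, 9.82, 11.2 and 9.82. Cluster 10 was led by Gli2, Atp13a4 and Mertk and had the astrocyte glutamate transporter gene Slc1a2 at 1600, 1380, 1260 and 1740 CPM against 362, 225, 240 and 152. Clusters 12, 13 and 10, of 51, 45 and 60 nuclei, went against the label in those genes, and they were kept because the rule admitted them. Of the 18 nuclei of cluster 14, 13 came from C57J 1 and 0 from C57J 2, so no leading genes were taken for it. Cluster 6 was led by Plpp4 and Maob, cluster 9 by Gm49046 and Phex, and cluster 4 by Gm30382, Il16 and Svil.

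**Figure D3:**
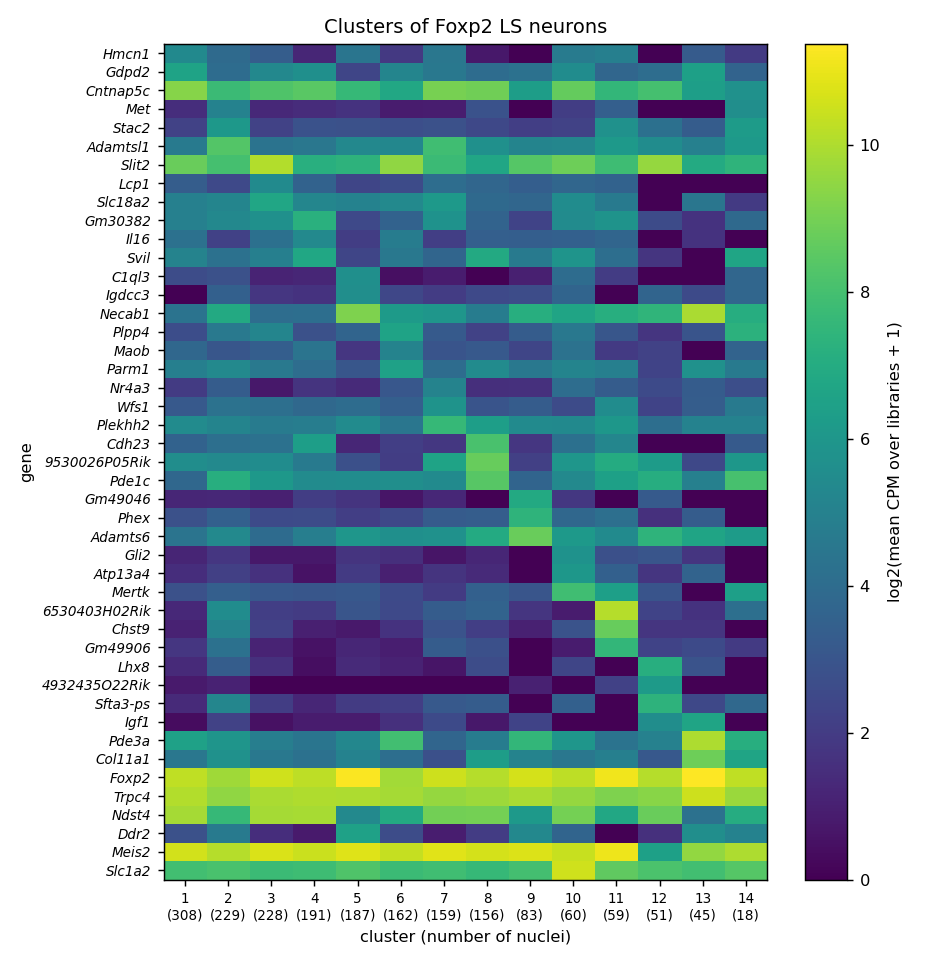
Level of leading and selected genes (y axis) in the 14 clusters of Foxp2 LS neurons (x axis, number of nuclei in brackets), as log2 of the mean CPM over libraries plus 1. Ndst4 is bright in clusters 1, 3 and 4 and dark in clusters 5 and 13, where Foxp2 is bright, and Meis2 is dark in cluster 12.

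To compare strain backgrounds within the members, UMIs were summed per library and C57J 1 and C57J 2 were set against nude and BALB/c with edgeR's quasi-likelihood test, and a gene was called when its p, adjusted by the method of Benjamini and Hochberg, was below 0.05 and its log2 fold change exceeded 0.5 in size. The rule did not use this contrast. Of 13395 genes tested, 68 (0.508%) were called higher and 94 (0.702%) lower in nude and BALB/c, 162 (1.21%) in all. The groups did not overlap in any of them, but this adds no support to the calls. Genes that were not called, such as Meg3 and Meis2, did not overlap either, and their share over all tested genes was not counted. The median log2 fold change of all genes was −0.01. Among the called genes, 15 of the higher and 25 of the lower were predicted genes or RIKEN clones. Within batch 2 alone, that is without C57J 1, 74 genes were called higher and 105 lower, of which 120 were among the 162. Without the BALB/c library, 15 were called higher and 11 lower, and without C57J 2, 243 and 371. In each of these 3 fits 1 arm holds a lone library, so that the spread comes from the 2 libraries of the other arm and the lone library is assumed to vary like them.

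Postn, which encodes the secreted matrix protein periostin, rose in both BALB/c backgrounds. Its level in the 4 libraries, in the order above, was 5.92, 8.14, 55.5 and 49.3 CPM (35, 29, 196 and 281 UMIs). The nude and BALB/c values lay far above both C57J values, with a log2 fold change of 2.95 (SE 0.21, edgeR adjusted p = 0.000238), a 7.73-fold difference. Against the C57J mean, the log2 ratio was 2.89 for nude and 2.72 for BALB/c, which share the C57J libraries. Postn was found in 5.12%, 5.66%, 18.0% and 26.6% of members, with at most 2, 3, 9 and 18 UMIs in a nucleus. At the common depth of 2000 UMIs it was found in 0.93%, 2.4%, 7.37% and 7.79% of members and in 1.01%, 1.13%, 1.03% and 0.884% of Trpc4 neurons without Foxp2. More nuclei of nude and BALB/c thus carried a Postn UMI at equal depth, and the highest counts per nucleus were in these libraries too. Postn lies on chromosome 3 from 54361109 to 54391037 on the plus strand of GRCm38, with no overlapping gene in the annotation.

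Cfap54, a component of motile cilia and flagella, was at 73.9, 86.1, 284 and 289 CPM (log2 fold change 1.87, SE 0.11, edgeR adjusted p = 9.67e-05). Dnah7a and Dnah6, axonemal dynein heavy chains, were at 10.7, 11.5, 47.3 and 58.4 CPM and at 6.93, 9.54, 30.0 and 35.1 CPM, with log2 fold changes of 2.29 and 2.04. The nude and BALB/c values exceeded both C57J values in all 3 genes, as in every gene called higher. Dnah7a has close relatives in the mouse genome, and whether its reads could be told from theirs was not tested. The ependymal markers, genes of a ciliated cell type, summed to 6.09, 6.17, 6.79 and 4.21 CPM in members, with Dnah12 the most abundant at 4.40, 4.77, 6.23 and 3.51 CPM and Fam216b at 1 UMI in C57J 1 and 0 in the other libraries. The sum was highest in nude and lowest in BALB/c, and the part of ependymal RNA in the rise of these 3 genes was not tested. Cfap54 rose by 1.81 on the log2 scale in Trpc4 neurons without Foxp2 too, where it was at 67.3, 71.1, 242 and 233 CPM.

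Among genes with a group mean of at least 10 CPM and a symbol other than that of a predicted gene or RIKEN clone, Zfp808, a KRAB zinc finger gene, rose most, at 2.54, 2.24, 27.7 and 25.1 CPM (log2 fold change 3.45, SE 0.27, edgeR adjusted p = 0.000419). Zfp808 is 1 of a family of related zinc finger genes and overlaps other annotated genes on its strand, so its counts are uncertain. Phldb2, Plcz1, Dynlt1b and Serpine3 rose by 2.62, 2.02, 1.85 and 1.84. Of these, Dynlt1b, a member of a duplicated dynein light chain family, was called in 3 of 11 alternatives, and Serpine3 in 6 of the 9 that gave it a value. The predicted genes Gm12160, 4930520O04Rik and Gm13110 rose too, Gm12160 from 1 UMI in each C57J library to 50 in nude and 56 in BALB/c, a pooled ratio of 54.4 (14.7 to 455).

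Among genes that fell, Banf2, a testis relative of a nuclear barrier protein, was at 13.5 and 10.9 CPM in C57J 1 and C57J 2 and had 0 UMIs in nude and in BALB/c. Set against a floor of 3 UMIs over both libraries, it was at least 38.7-fold lower. Cldn34c1, a claudin gene, was at 26.9, 35.1, 0.283 and 0 CPM, and Rec8, a cohesin subunit of meiosis, was at 8.62, 11.8, 0 and 0.175 CPM. With 1 UMI left in nude and BALB/c together for each gene, the pooled ratio of C57J to that sum was 277 (49.3 to 11000) for Cldn34c1 and 90.6 (15.9 to 3620) for Rec8 (exact 95% intervals of counting error). Adam18, a sperm surface protein, fell from 16.7 and 16.0 CPM to 0.283 and 0.351.

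The fall of Fggy, a carbohydrate kinase, was measured at greater depth, at 77.4, 76.6, 14.4 and 14.2 CPM (log2 fold change −2.41, SE 0.15, edgeR adjusted p = 9.67e-05). The noncoding transcript 1500004A13Rik fell from 112 and 128 CPM to 13.0 and 13.5 (log2 fold change −3.15, SE 0.15, edgeR adjusted p = 2.42e-05), and it overlaps 5830417I10Rik on the opposite strand of chromosome 3. The 2 C57J values of each gene lay close together and far above those of nude and BALB/c. Mcmdc2, a gene of meiosis, fell from 13.7 and 18.2 CPM to 1.42 and 1.93, and Muc3a, a mucin, from 21.3 and 14.3 CPM to 1.42 and 0.701. Rpl29, Ftl1-ps1 and Ccl27a fell by 3.10, 3.73 and 3.08 on the log2 scale, but they are a ribosomal protein gene, a ferritin pseudogene and a duplicated chemokine gene, so their counts are uncertain if reads could not be told from those of similar copies, which was not tested. The predicted genes Gm35256 and Gm9989 were also lower.

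Most of these genes differed alike in Trpc4 neurons without Foxp2. Of the 26 genes named for the background comparison, 24 had an edgeR adjusted p below 0.05 in that class as well. The exceptions were Postn, with a log2 fold change of 0.29 (edgeR adjusted p = 0.659), and Plcz1, a phospholipase known from sperm, with 1.16 (edgeR adjusted p = 0.164). Plcz1 was at only 1.05 to 3.15 CPM in that class. Its difference between the classes, tested directly, was not called (0.86 on the log2 scale, edgeR adjusted p = 0.819). That class had more UMIs in its sums, and 123 genes were called higher and 180 lower there among 17099 tested. Whether differences between the strains' sequence and the C57BL/6J reference affected the assignment of reads was not tested.

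**Figure D4:**
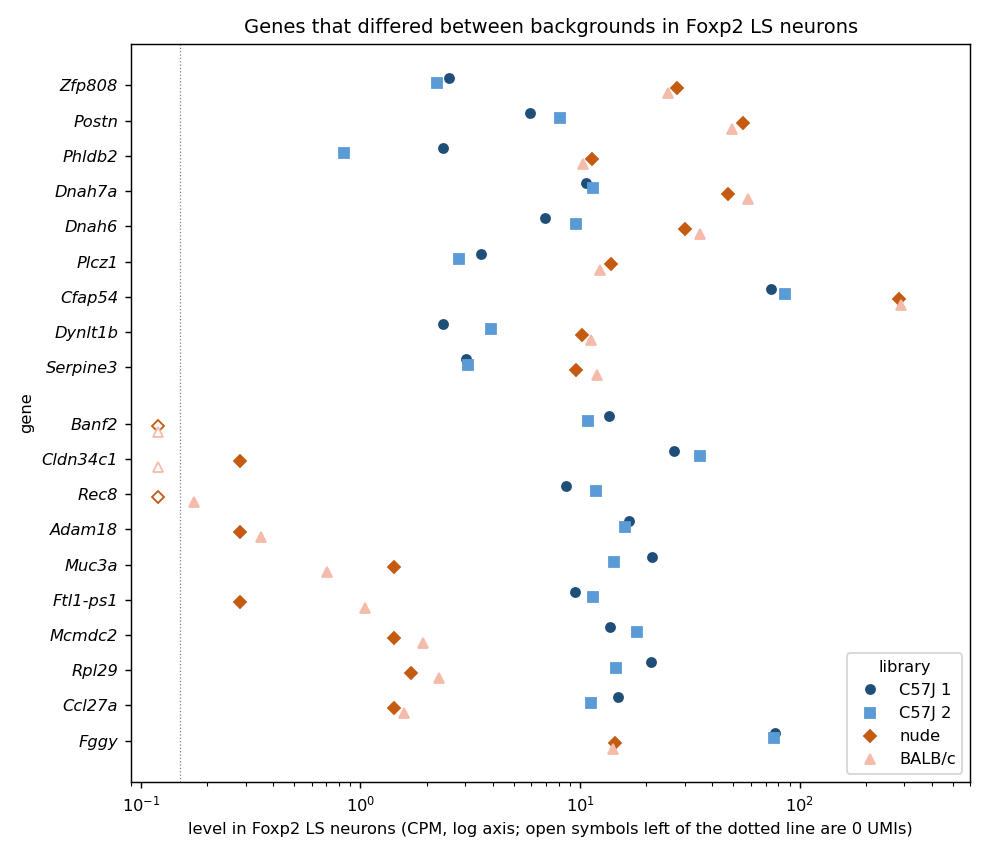
Level in Foxp2 LS neurons (x axis, CPM on a log axis) of genes among the 10 chosen as higher and the 10 chosen as lower in nude and BALB/c (y axis). Each symbol is 1 library and open symbols left of the dotted line mark 0 UMIs. Genes were chosen only where the groups did not overlap. The nude and BALB/c symbols therefore lie apart from both C57J symbols in each gene, for example at 284 and 289 against 73.9 and 86.1 CPM for Cfap54.

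Most gene lists held no called gene. Beside the 0.508% and 0.702% of all genes, 0 genes were called among the 32 forebrain transcription factors tested, 24 neuropeptide and hormone receptors, 21 monoamine, acetylcholine and cannabinoid receptors, 22 glutamate receptors, 14 GABA receptors, 46 channel genes, 22 Wnt genes, 7 neuropeptides, 9 immediate early genes and 4 genes of the Foxp family and its corepressors. At these shares, lists of this size would hold few called genes or none. Their median log2 fold changes lay between −0.06 and 0.11. Of 6 genes that the study named for fear, learning or anxiety, a list chosen on these samples, 0 were called. Grm7, a metabotropic glutamate receptor, was at 1150, 1120, 993 and 807 CPM (log2 fold change −0.31, edgeR adjusted p = 0.266). Ndn, a growth regulator, was at 28.9, 19.1, 34.8 and 54.0 CPM (log2 fold change 0.90, edgeR adjusted p = 0.152). The lower values of nude and BALB/c for Grm7 and the higher ones for Ndn did not pass the test.

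Single list genes did pass. Sema5a, a semaphorin of the axon guidance list, was at 115, 94.6, 147 and 180 CPM (log2 fold change 0.66, SE 0.13, edgeR adjusted p = 0.0461). It was 1 higher gene of 38 tested, beside 0.508% of all genes. Elavl2, a neuronal RNA-binding protein by which the study marked medial septal neurons, was at 80.7, 83.1, 137 and 117 CPM (0.65, SE 0.12, edgeR adjusted p = 0.0319). It was called in 6 of 11 alternatives, and not with nuclei thinned to 2000 UMIs. It was the most abundant of the 7 medial septal markers. Of these, 5 were tested and 1 was called, beside 0.508% of all genes called higher, and the median log2 fold change was 0.63. Their sum was 98.9, 94.6, 165 and 128 CPM in members and 157, 149, 192 and 247 CPM in Trpc4 neurons without Foxp2, and the part of medial septal RNA in this result was not tested. Ddr2, a collagen receptor kinase, was at 22.2, 28.6, 7.92 and 5.96 CPM (−1.86, SE 0.26, adjusted p = 0.0093). The groups did not overlap in these 3 genes, as in every called gene. Sema5a and Ddr2 were each called in 8 of 11 alternatives, and neither with nuclei thinned to 2000 UMIs. Ddr2 was a leading gene of cluster 5, with 152, 120, 44.1 and 47.2 CPM there, so that its fall was seen within that cluster as well as in the members as a whole.

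The summed level of the oligodendrocyte markers did not overlap between the groups. In members it was 438 and 407 CPM in C57J 1 and C57J 2 and 267 and 263 CPM in nude and BALB/c, beside 15500, 13000, 10700 and 15900 CPM in oligodendrocyte nuclei. Of 7 tested, 2 were called lower, beside 0.702% of all genes, and the median log2 fold change was −0.73 beside −0.01 over all genes. Mobp, a myelin protein and 1 of these 2, was at 41.1, 30.0, 17.0 and 18.6 CPM (−0.99, SE 0.20, edgeR adjusted p = 0.0487). It was called in 4 of 11 alternatives. In Trpc4 neurons without Foxp2 the sums were 482, 484, 321 and 294 CPM. No oligodendrocyte marker was at 0, and the part of this RNA in the other background differences was not tested. The medians of the astrocyte, microglia and oligodendrocyte precursor lists were −0.41, −0.37 and −0.60, with 0 genes called in each.

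Finally, the difference of the background effect between members and Trpc4 neurons without Foxp2 was tested directly, with library as a block. Of 16281 genes tested, 5 (0.0307%) had a higher and 5 (0.0307%) a lower log2 change in members, 10 (0.0614%) in all, and 956 had an unadjusted p below 0.05. Postn had the lowest p. Its level in Trpc4 neurons without Foxp2 was 4.81, 6.70, 6.75 and 7.02 CPM, near that of the C57J members, whereas nude and BALB/c members were at 55.5 and 49.3. The difference was 2.62 on the log2 scale (SE 0.22, edgeR adjusted p = 9.47e-05), and it was called in all 10 alternatives that gave it a value. By cluster, Postn was at 3.10, 5.16, 60.4 and 81.4 CPM in cluster 1, at 4.46, 5.22, 31.2 and 26.8 in cluster 2 and at 7.70, 5.2, 55.4 and 119 in cluster 3. It was at 11, 10.1, 114 and 77.0 CPM in cluster 4, at 4.55, 23.4, 51.8 and 25.2 in cluster 6, at 2.23, 13.1, 152 and 58.8 in cluster 7 and at 7.93, 0, 16.7 and 25.5 in cluster 8. In each of these clusters both the nude and the BALB/c value lay above both C57J values, as a description on few UMIs. In cluster 5 it was at 4.75, 14.7, 6.79 and 0 CPM, where the groups did not separate in this direction.

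The 5 other genes with the lowest p had smaller differences. Cadps2, which primes dense-core vesicles, was at 321, 356, 259 and 164 CPM in members and at 149, 149, 187 and 186 CPM in the other class, a difference of −1.04 (SE 0.15, edgeR adjusted p = 0.0191). Within either class alone its change was not called, with an adjusted p of 0.162 in members and 0.0593 in the other class. Kctd16, an auxiliary subunit of the GABA-B receptor, was at 659, 630, 532 and 440 CPM against 812, 803, 911 and 849 (−0.54, SE 0.07, adjusted p = 0.0191). Fbn2, a fibrillin, rose in both classes but less in members, with 52.1, 64.5, 106 and 98.7 CPM against 33.6, 37.9, 110 and 96.9 (−0.70, SE 0.10, adjusted p = 0.0191). Srgap1, a GTPase regulator of Slit and Robo signaling, was at 259, 231, 222 and 207 CPM against 180, 177, 222 and 230 (−0.54, SE 0.08, adjusted p = 0.0318). Fstl4, a follistatin-like protein, was at 74.9, 70.4, 118 and 124 CPM against 129, 135, 148 and 148 (0.57, SE 0.09, adjusted p = 0.0342). When the rule was applied to thinned counts, 3 of the 10 genes were still called, and without the BALB/c library 5 were.

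**Figure D5:**
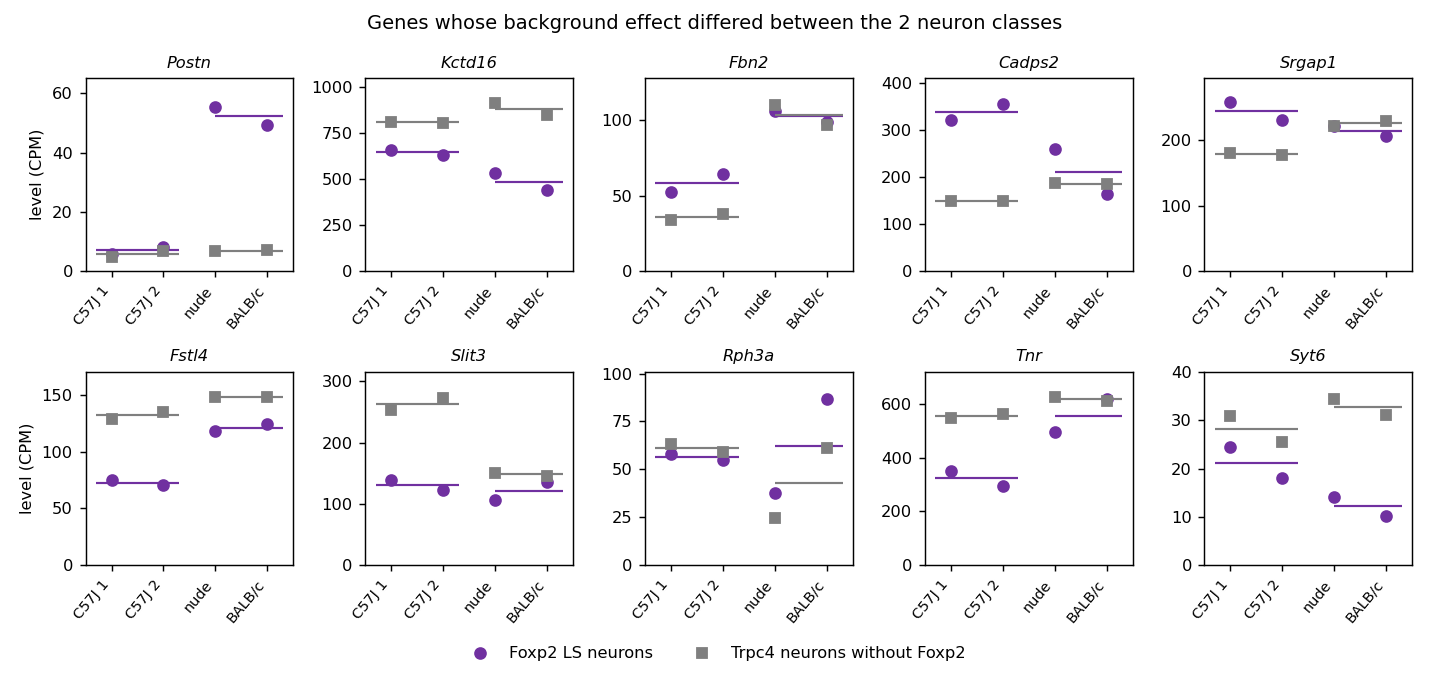
Level (y axis, CPM) in each library (x axis) of the 10 genes whose background effect differed between Foxp2 LS neurons (purple circles) and Trpc4 neurons without Foxp2 (grey squares), with lines at the means of the C57J and of the nude and BALB/c libraries. Postn members stand at 55.5 and 49.3 CPM in nude and BALB/c while every other Postn value is below 10.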

How the data were processed

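Nuclei of 4 libraries were analysed from the UMI counts per gene and barcode that the authors deposited, which the submitters' processing notes credit to Cell Ranger 7.0.1 and the mm10 genome. Whether intronic reads were counted is not given in the sources used here. Mm10 is the C57BL/6J assembly. Positions were matched by gene ID to GENCODE vM21.

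The members and gene lists were chosen with earlier results of these data known. Nuclei were selected by the rule in the opening and doublets were predicted with Scrublet (0.8% per 1000 nuclei) and kept. Counts were summed per library and class, since nuclei are not replicates, in place of the tests over nuclei in the study. Genes were filtered with filterByExpr, scaled by TMM and tested with edgeR 4.0.16 in R 4.3.3, with Benjamini-Hochberg adjustment. The difference between classes was fitted with library as a block. Both fits were tested on simulated data, where small changes were recovered less often than large ones, more so for the difference between classes, so that a gene not called may still differ. Ratios between classes used CPM with a pseudocount of 0.5.

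Genes named for the background were the 10 called genes with the largest change in each direction, plus 3 predicted or RIKEN genes. They had a group mean of at least 10 CPM and groups that did not overlap. The 6 genes with the lowest p were named for the difference between classes. Against the other class, the 15 highest and 10 lowest genes at 20 CPM or more were named, ranked by their least extreme ratio of the 4 libraries. The 4 most abundant genes of each list and list genes that were called could be named too. Clusters used scanpy 1.11.5 with 2000 variable genes, 20 components, 15 neighbours and Leiden resolution 0.5. The 12 rule genes and mitochondrial and sex-linked genes were left out. So were 459 genes with a log2 fold change between backgrounds over 1 in size, whether called or not.

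Alternatives were DESeq2 1.42.0, its size factors, no filter, removal of predicted doublets, thinning to 2000 UMIs, at least 5 Foxp2 UMIs, deeper nuclei of at least 3000 UMIs, other denominators and each library left out. A few genes that these rules chose are not reported here.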

Additional observations from a re-analysis of the deposited data

Results flagged for a closer look

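The background effect of 10 genes was called as different between Foxp2 LS neurons and Trpc4 neurons without Foxp2 by edgeR's test of the difference itself. Each had an adjusted p below 0.05 and a log2 difference over 0.5 in size. The differences, on the log2 scale and as the effect in members minus that in the other class, were 2.62 for Postn, −0.54 for Kctd16, −0.70 for Fbn2, −1.04 for Cadps2, −0.54 for Srgap1 and 0.57 for Fstl4. Slit3, a ligand of Robo receptors, differed by 0.72 (SE 0.12, edgeR adjusted p = 0.0342). It was at 139, 123, 106 and 136 CPM in members of C57J 1, C57J 2, nude and BALB/c and at 253, 273, 150 and 146 CPM in the other class. Rph3a, a synaptic vesicle effector, differed by 0.65 (SE 0.10, adjusted p = 0.0342), with 58.2, 55, 37.4 and 86.8 CPM in members against 63.3, 58.8, 24.5 and 61.0. Its nude and BALB/c values lay on opposite sides of the C57J values in members. Tnr, the matrix protein tenascin R, differed by 0.63 (SE 0.10, adjusted p = 0.0423), with 352, 293, 496 and 617 CPM against 549, 561, 625 and 611. Syt6, a synaptotagmin, differed by −1.07 (SE 0.18, adjusted p = 0.0423), with 24.5, 18.0, 14.2 and 10.2 CPM against 30.9, 25.5, 34.5 and 31.1, and was called in 5 of the 10 alternatives that gave it a value.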

How the results depend on the processing

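In place of 68 genes called higher and 94 lower, 202 and 285 were called without the filter on low counts, 20 and 21 with nuclei thinned to 2000 UMIs, and 16 and 19 with the rule applied to thinned counts. Without predicted doublets, 49 were higher and 56 lower. Leaving out each library in turn gave 15 to 243 higher and 11 to 371 lower. Of 34 named genes, 13 were still called without the BALB/c library, 30 without nude, 31 without C57J 1 and 34 without C57J 2. With nuclei thinned to 2000 UMIs 16 of the 25 still tested were called, and with the rule applied to thinned counts 14 of 29. None turned its direction under the alternatives run. Instead of 10 genes that differed between classes, DESeq2 called 4 among 1761 genes to which it gave an adjusted p, no filter gave 58, removal of doublets 22, at least 5 Foxp2 UMIs 26, and leaving out each library 15 to 135. The log2 ratio of the member share to C57J was −0.32 for nude over all nuclei, and −0.74 to −0.42 with 1 C57J library left out. For BALB/c it was 0.01 with the rule applied to thinned counts, the reverse of −0.28, and −0.43 to −0.11 with 1 C57J library left out. Of 75 ratios to the other class under 3 alternatives, 16 moved by more than the spread and 0 turned. Thinning leaves fewer UMIs and fewer genes tested, and the cause of the other shifts was not tested. No paired analysis was possible because, for the comparison between backgrounds, nude and BALB/c have 1 library each and share fewer than 2 replicate numbers with C57J. The difference between classes had library as a block throughout.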
